A study of Rattus norvegicus with 8 samples.

Results

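The integrin and laminin genes of the rat trigeminal nerve were followed across 4 strains. They were taken as every gene whose symbol on the array starts with Itga, Itgb, Lama, Lamb or Lamc, which gave 26 genes, each with 1 probe, of 13337 genes with a symbol. Of these, 22 encode integrin or laminin subunits and 4 (Itgb1bp1, Itgb1bp2, Itgb3bp and Itgbl1) share only the prefix. A gene was measured where its probe was above background (detection p under 0.05) on at least 2 of 8 arrays, and 19 of the 26 were, within 9154 measured genes. The nerves came from untreated rats aged 85 days of the inbred strains BDIV and BDIX and of 2 congenic strains, BDIX.BDIV-Mss4d and BDIX.BDIV-Mss4a, written below as Mss4d and Mss4a. Each strain gave 1 female and 1 male pool of nerves, and each pool gave 1 Illumina RatRef-12 bead array. The BDIX strain is known for malignant tumours of this nerve after ethylnitrosourea, which BDIV resists, and the congenic strains carry a segment of BDIV chromosome on the BDIX background. Neither the borders of the segments nor the number of animals per pool are given in the sources used here, and no agent or transgene was used in any group.

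Laminins are cross-shaped trimers of an alpha, a beta and a gamma chain that polymerise into the basal lamina around each Schwann cell. Integrins are pairs of an alpha and a beta subunit that span the membrane, bind such matrix outside the cell and link it to actin or, for the β4 subunit, to intermediate filaments. In peripheral nerve, Schwann cells need laminin and its β1 integrin receptors to sort axons and to myelinate them, and add the α6β4 integrin as myelin matures. The main Schwann cell laminin holds the chains α2, β1 and γ1. No probe carried the symbol of Lama2, Lama4, Lama5, Lamb1, Itga3 or Itga6, so these subunits of the Schwann cell basal lamina were not analysed here. Of the 11 basal lamina subunits set for array by array description, 5 had a probe with their symbol, and all of these were measured: Lamb2, Lamc1, Itga7, Itgb1 and Itgb4. Probes without a symbol, 8730 of 22523, were not assigned to any gene.

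Values below are normalised log2 intensities in the order female then male pool. Differences are log2 ± standard error from limma, fitted with strain and sex over all 8 arrays, with n = 2 arrays per strain and a two-sided Benjamini-Hochberg adjusted p over 13114 probes. Levels are compared for 1 probe between strains and never between probes. Median bead signal ran from 80.2 to 145 over the arrays and the share of probes above background from 47.7% to 54.3%. The arrays of a strain were brighter or dimmer together, so strain and array batch cannot be told apart. The Mss4d male array, and to a lesser extent the Mss4d female array, stood apart in thyroid markers, as given with the marker lists. The 2 BDIV pools correlated with r = 0.996 over tested probes and the pairs of the other strains with 0.978 to 0.980. Nothing in the labels says that pools are independent beyond strain and sex, so the p-values measure only the spread between these arrays. Bulk nerve was measured, so fewer cells of a type and less RNA per cell cannot be told apart.

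Of the 7 measured laminin chains and laminin receptor subunits, 5 were lowest in both BDIV pools: Lamb2, Lamc1, Lama1, Itgb4 and Itga7. Across the 4 strains, 9 of the 19 measured genes differed (limma F test), against 39.8% of all measured genes: Lamb2, Lamc1, Itgb4, Itga7, Itga5, Itgb5, Itgb6, Itgbl1 and Itgb1bp2. Both BDIV arrays lay below all 6 arrays of the other strains for 8 of 19 genes, where 21.9% of all genes did so. These were Lamb2, Lamc1, Lama1, Itgb4, Itga7, Itga5, Itgb5 and Itgbl1. Both BDIV arrays lay above the other 6 for Itgb6 and Itgb1bp1, a pattern of 18.3% of all genes. Both BDIX arrays lay below the rest for Itgb6 (6.96% of all genes) and above for Itgb4 and Itgbl1 (8.0%). Both Mss4a arrays lay below for Itgb1bp1 and Itgb1bp2 (10.6%) and above for 0 members (11.5%), and both Mss4d arrays lay below for 0 (8.06%) and above for 0 (7.91%). The F test called 0 of the 19 without the female BDIV array and 0 without the male one, when calls over all probes fell from 5235 to 231 and 97.

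**Figure D1:**
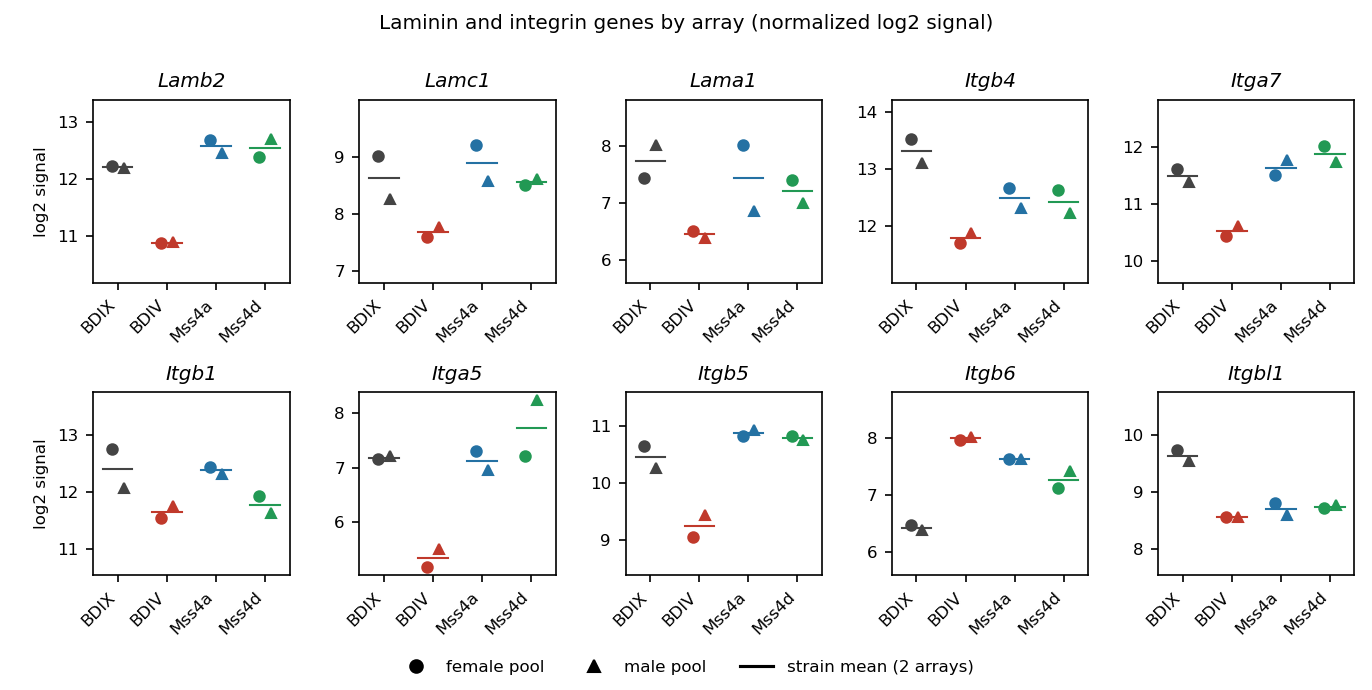
Normalised log2 intensity of 10 measured members on each of the 8 arrays, with a circle for the female pool, a triangle for the male pool and a line at the mean of each strain. For Lamb2, Itgb4, Itga7, Itga5 and Itgb5 both BDIV points lie below every other point, and for Itgb6 both BDIX points do.

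Of the laminin chains, Lamb2 and Lama1 were lower in BDIV than in BDIX, with Lama1 only just past the threshold. Lamb2, on chromosome 8 (GRCr8), encodes the β2 chain, a part of the laminins of synaptic, kidney and vessel basement membranes. Its level was 12.22 and 12.19 in BDIX, 10.87 and 10.90 in BDIV, 12.69 and 12.46 in Mss4a, and 12.40 and 12.70 in Mss4d. The BDIV pools stood apart at the low end, while the pools of the other 3 strains lay close together, with those of BDIX lowest among them. BDIV lay below BDIX by 2.50-fold (-1.32 ± 0.20, limma adjusted p = 0.00902), and Mss4a lay above BDIV by 1.69 ± 0.20 (limma adjusted p = 0.00263) and Mss4d by 1.66 ± 0.20 (limma adjusted p = 0.00287). These differences of the congenic strains from BDIV stayed past the threshold under all 18 alternatives run on each, leaving out each array included. Between either congenic strain and BDIX no difference passed, at 0.37 with a 95% interval of -0.10 to 0.84 for Mss4a.

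Lamc1, on chromosome 13, encodes the γ1 chain that most laminins share. Its level was 9.01 and 8.26 in BDIX, 7.60 and 7.78 in BDIV, 9.20 and 8.58 in Mss4a, and 8.50 and 8.61 in Mss4d. The BDIV pools were again lowest, but male minus female was -0.75 in BDIX and -0.62 in Mss4a. The strains differed in the F test (limma adjusted p = 0.0435), Mss4a lay above BDIV (1.20 ± 0.28, limma adjusted p = 0.0182), and BDIV minus BDIX was -0.95 ± 0.28 and missed the threshold (limma adjusted p = 0.0526). The F test call was lost under 8 of 16 alternatives, among them the authors' values, no filter and 6 of the 8 fits without 1 array, and the difference of Mss4a from BDIV fell to 0.40 with median scaling (limma adjusted p = 0.291). Lama1, on chromosome 9, encodes the α1 chain, best known from embryonic and epithelial basement membranes. Its level was 7.44 and 8.02 in BDIX, 6.52 and 6.39 in BDIV, 8.01 and 6.86 in Mss4a, and 7.41 and 7.01 in Mss4d. BDIV lay below BDIX by 1.28 ± 0.37 with an adjusted p of 0.0496 (limma), the weakest of the 9 calls in that comparison. Male minus female in Mss4a was -1.15, nearly as large. The Lama1 call was lost under 10 of 19 alternatives. Among them were no background correction (-0.84, limma adjusted p = 0.0633) and the authors' values (-1.30, limma adjusted p = 0.0537). Lamb3, which encodes the β3 chain of epithelial laminin, was above background on both arrays of BDIX and of BDIV and on none of the congenic strains. Its values spanned only 4.79 to 5.37, near the background, and no comparison passed.

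The laminin receptor subunits Itgb4 and Itga7 were lower in BDIV, and for Itgb1 no pair of strains passed. Itgb4, on chromosome 10, encodes the β4 subunit, which pairs with α6 and faces the basal lamina on the outer side of myelinating Schwann cells. Its level was 13.52 and 13.11 in BDIX, 11.71 and 11.89 in BDIV, 12.68 and 12.32 in Mss4a, and 12.63 and 12.23 in Mss4d. Both BDIX arrays stood above the other 6, both BDIV arrays below, and the congenic strains lay between without overlap with either parent strain. BDIV fell 2.86-fold below BDIX (-1.52 ± 0.21, limma adjusted p = 0.00808). The 2 congenic strains lay 0.82 and 0.88 below BDIX, at limma adjusted p = 0.0519 and 0.0607, which missed the threshold. Mss4a lay above BDIV by 0.70 ± 0.21 (limma adjusted p = 0.0433), a difference that turned to -0.04 when arrays were scaled to their medians, where the median of all probes was -0.46. That call stayed past the threshold under only 7 of 18 alternatives, and was lost with the authors' values (0.68, limma adjusted p = 0.0700).

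Itga7, on chromosome 7, encodes the α7 subunit, which pairs with β1 as a laminin receptor of muscle and Schwann cells. Its level was 11.61 and 11.40 in BDIX, 10.44 and 10.61 in BDIV, 11.51 and 11.78 in Mss4a, and 12.02 and 11.74 in Mss4d. The BDIV pools lay apart at the low end, the Mss4a pools overlapped those of BDIX and the Mss4d pools lay above them. BDIV was 1.97-fold below BDIX (-0.98 ± 0.21, limma adjusted p = 0.0216), while Mss4a exceeded BDIV by 1.12 ± 0.21 (limma adjusted p = 0.0092) and Mss4d by 1.36 ± 0.21 (limma adjusted p = 0.00578). With median scaling the difference of Mss4a from BDIV fell to 0.37 and did not pass (limma adjusted p = 0.161). Itgb1, on chromosome 19, encodes the β1 subunit shared by the receptors for laminin, collagen and fibronectin. Its level was 12.75 and 12.06 in BDIX, 11.54 and 11.75 in BDIV, 12.43 and 12.32 in Mss4a, and 11.93 and 11.62 in Mss4d. The Mss4d male pool fell within the BDIV range and male minus female was -0.68 in BDIX. BDIV minus BDIX was -0.76 ± 0.24 and did not pass (limma adjusted p = 0.0635). Without background correction it passed (-0.75, limma adjusted p = 0.0433), as did Mss4a minus BDIV (0.72, limma adjusted p = 0.0375). Neither of these passed with median scaling (-0.46 and -0.0019) or with the authors' values (-0.59 and 0.72).

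Of the subunits that bind fibronectin, vitronectin and related matrix, Itga5 and Itgb5 were lower in BDIV and Itgb6 was higher. Itga5, on chromosome 7, encodes the α5 subunit of the fibronectin receptor. Its level was 7.16 and 7.21 in BDIX, 5.17 and 5.50 in BDIV, 7.30 and 6.95 in Mss4a, and 7.21 and 8.24 in Mss4d. The BDIV female pool was not above background and the Mss4d male pool was the brightest. BDIV lay 3.60-fold below BDIX (-1.85 ± 0.32, limma adjusted p = 0.0121), and Mss4d lay 5.24-fold above BDIV (2.39 ± 0.32, limma adjusted p = 0.00364). Without background correction, which matters for dim probes, the difference of Mss4d from BDIV was 1.40 and still passed. Itgb5, on chromosome 11, encodes the β5 subunit of a vitronectin receptor. Its level was 10.65 and 10.27 in BDIX, 9.06 and 9.44 in BDIV, 10.82 and 10.93 in Mss4a, and 10.83 and 10.76 in Mss4d. Both BDIV pools lay below every other pool, and the congenic pools were all above those of BDIX by a margin that did not pass. The difference of BDIV from BDIX was -1.21 ± 0.22 (limma adjusted p = 0.0142) and that of Mss4a from BDIV 1.62 ± 0.22 (limma adjusted p = 0.00397).

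Itgb6, on chromosome 3, encodes the β6 subunit, which pairs with αv, is known mainly from epithelia, and activates latent transforming growth factor β. Its level was 6.47 and 6.38 in BDIX, 7.96 and 8.01 in BDIV, 7.63 and 7.63 in Mss4a, and 7.12 and 7.42 in Mss4d. BDIX was lowest, BDIV highest, and the congenic pools lay between them with no overlap between any neighbours in that order. Against BDIX it was higher in BDIV (1.56 ± 0.19, limma adjusted p = 0.00618), in Mss4a (1.21 ± 0.19, limma adjusted p = 0.0181) and in Mss4d (0.84 ± 0.19, limma adjusted p = 0.0497), and Mss4a and Mss4d did not differ past the threshold. These 3 comparisons share the BDIX arrays. The call in Mss4d was lost in 14 of 18 alternatives, all 8 fits without 1 array included, and that in Mss4a in 6 of 18, median scaling among them (0.52). Itgb6 was the one member that was higher past the threshold in any strain against BDIX. The summed normalised signal of 6 measured epithelial markers was 2056 to 2572 in BDIX, 1262 to 1313 in BDIV, 1194 to 1889 in Mss4a, and 1437 and 13820 in the female and male pools of Mss4d. Of these markers 5 lay above BDIX in each congenic strain (medians 0.66 and 1.82) and 2 did in BDIV (median -0.35), and their part in the result was not tested.

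The 300 bases around the transcription start are shown for Lamc1, Itga5 and Itgb5, among the members lowest in BDIV, and for Itgb6, among those highest there. They run 5′ to 3′ on the strand of the gene, from 250 bases before the start to 50 after it, and come from RefSeq on GRCr8. Capitals mark the GC box GGGCGG, on either strand, the letters bound by Sp family factors. All 4 genes lie on the minus strand, Lamc1 at chr13:68051937-68052236, Itga5 at chr7:136381256-136381555, Itgb5 at chr11:80449324-80449623 and Itgb6 at chr3:65530284-65530583.
Lamc1: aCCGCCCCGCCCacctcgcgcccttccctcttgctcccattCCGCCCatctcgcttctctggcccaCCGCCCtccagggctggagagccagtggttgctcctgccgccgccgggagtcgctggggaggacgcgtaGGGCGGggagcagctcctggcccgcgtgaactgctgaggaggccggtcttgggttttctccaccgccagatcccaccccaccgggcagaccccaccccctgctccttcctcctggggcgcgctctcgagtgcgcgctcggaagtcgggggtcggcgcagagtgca
Itga5: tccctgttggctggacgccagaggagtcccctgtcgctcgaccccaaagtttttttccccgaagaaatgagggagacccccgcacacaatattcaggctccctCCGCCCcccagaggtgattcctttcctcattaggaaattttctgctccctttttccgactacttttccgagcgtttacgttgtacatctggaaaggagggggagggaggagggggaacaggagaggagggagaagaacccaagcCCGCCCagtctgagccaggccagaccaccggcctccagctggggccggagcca
Itgb5: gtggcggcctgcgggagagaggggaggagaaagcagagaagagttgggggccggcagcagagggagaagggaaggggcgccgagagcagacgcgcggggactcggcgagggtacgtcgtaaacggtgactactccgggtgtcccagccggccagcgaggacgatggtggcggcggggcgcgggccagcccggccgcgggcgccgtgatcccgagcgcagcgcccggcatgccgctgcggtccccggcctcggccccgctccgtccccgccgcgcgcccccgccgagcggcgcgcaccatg
Itgb6: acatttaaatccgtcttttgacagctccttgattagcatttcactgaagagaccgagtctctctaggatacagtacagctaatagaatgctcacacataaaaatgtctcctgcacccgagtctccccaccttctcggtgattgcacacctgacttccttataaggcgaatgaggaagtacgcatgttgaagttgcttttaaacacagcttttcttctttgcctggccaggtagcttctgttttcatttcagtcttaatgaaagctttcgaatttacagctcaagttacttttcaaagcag
The Lamc1 stretch held 5 GC boxes and that of Itga5 held 2, while those of Itgb5 and Itgb6 held 0. GC content was 71.7% for Lamc1, 58.7% for Itga5, 76.7% for Itgb5 and 41.7% for Itgb6, against a median of 52.3% over all promoters in the table. Of the other members lowest in BDIV, Lama1 had 45.7% and 0 GC boxes, and Itgbl1 had 51.7% and 1. Itgb1bp1, also highest in BDIV, had 68.3% and 0. For Lamb2, Itgb4 and Itga7 no promoter sequence was at hand. A GC box stood in 10 of the 21 members with a promoter in the table and in 34.9% of all 27457 promoters. The letters GGAATG, bound by TEAD factors, stood in 6 of 21 against 13.9% of all, and ACAAAG, bound by SOX factors, in 3 of 21 against 18.3%, both strands searched. A match describes letters only, since no binding was measured.

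The 4 genes that share only the prefix were measured too, and 2 of them differed between strains. Itgbl1, on chromosome 15, encodes a secreted protein with repeats like those of integrin beta subunits. Its level was 9.72 and 9.54 in BDIX, 8.56 and 8.56 in BDIV, 8.80 and 8.60 in Mss4a, and 8.71 and 8.76 in Mss4d. BDIX stood above all 6 other arrays, which lay between 8.56 and 8.80. It was lower than in BDIX in BDIV (-1.07 ± 0.18, limma adjusted p = 0.0112), in Mss4a (-0.93 ± 0.18, limma adjusted p = 0.0256) and in Mss4d (-0.89 ± 0.18, limma adjusted p = 0.0399), again with shared BDIX arrays. Itgb1bp2, on chromosome X, encodes melusin, which binds the tail of β1 integrin in striated muscle. Its level was 6.55 and 6.78 in BDIX, 5.68 and 5.87 in BDIV, 5.45 and 5.24 in Mss4a, and 6.72 and 6.61 in Mss4d. The Mss4a pools were lowest, with the male one not above background, and the 2 congenic strains lay on opposite sides of BDIV. Mss4a lay 2.49-fold below Mss4d (-1.32 ± 0.20, limma adjusted p = 0.0412), the one member past the threshold between the congenic strains, where 0.983% of all genes passed (0.328% higher and 0.655% lower in Mss4a). Without each array in turn, that call was lost in all 8 fits, and without background correction the difference was -0.67 and did not pass (limma adjusted p = 0.0657). Itgb1bp1, which encodes a β1 tail partner that inhibits integrin activation, and Itgb3bp, a centromere protein gene, spanned 0.62 and 0.68 over the 8 arrays and passed in no comparison.

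The collagen receptor subunits Itga1 and Itga11 and the leukocyte subunits Itga4, Itgam and Itgb7 passed in no comparison of strains. Itga1, which encodes the α1 subunit of a collagen and laminin receptor, spanned 6.16 to 8.84, and the male pool was the higher in 4 of 4 strains, by 2.68 in Mss4d and 0.09 in BDIV. Itga4, whose α4 subunit is carried by leukocytes and by some neural crest cells, was 6.98 and 7.93 in BDIX and 6.25 and 6.52 in BDIV (-1.07 ± 0.32, limma adjusted p = 0.0543). Itga11 spanned 6.72 to 7.84. Itgam, a myeloid subunit, and Itgb7, a subunit of lymphocyte homing receptors, stayed between 5.09 and 6.26, near the background.

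Of the 7 genes below the detection rule, Itga8, Itgad and Itgal were above background on 0 of 8 arrays. Itga2, Itga10, Itgb8 and Lamc3 were above it on 1 array each, just outside the rule, with highest log2 values of 5.53, 5.34, 5.88 and 5.28. Just inside it lay Lamb3, on 4 arrays and with a highest value of 5.37. Itgb8, which encodes the β8 subunit, another activator of latent transforming growth factor β, was above background on the BDIX female array, at 5.88 against 4.79 to 5.15 on the other 7.

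The comparison of the resistant with the susceptible strain before any exposure showed lower levels in BDIV for most members that differed. Of 19 members, 9 passed in BDIV against BDIX, where 22.0% of all genes did: 1 was higher (Itgb6, 10.3% of all genes) and 8 were lower (Itgb4, Lamb2, Itgbl1, Itga5, Itgb5, Itga7, Itgb1bp2 and Lama1, 11.7% of all genes). The median difference over the 19 was -0.90 against -0.04 over all genes. The direction was the same in the female and the male pools for 15 of the 19 members, the 9 called ones among them, as the fit over both pools favours. Leaving out the female BDIV, the male BDIV or the female BDIX array left 0 of the 9 calls, when calls over all probes fell from 2758 to 8, 24 and 30. Of the calls over all probes 47.6% were higher, and 62.5% with arrays scaled to their medians.

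**Figure D2:**
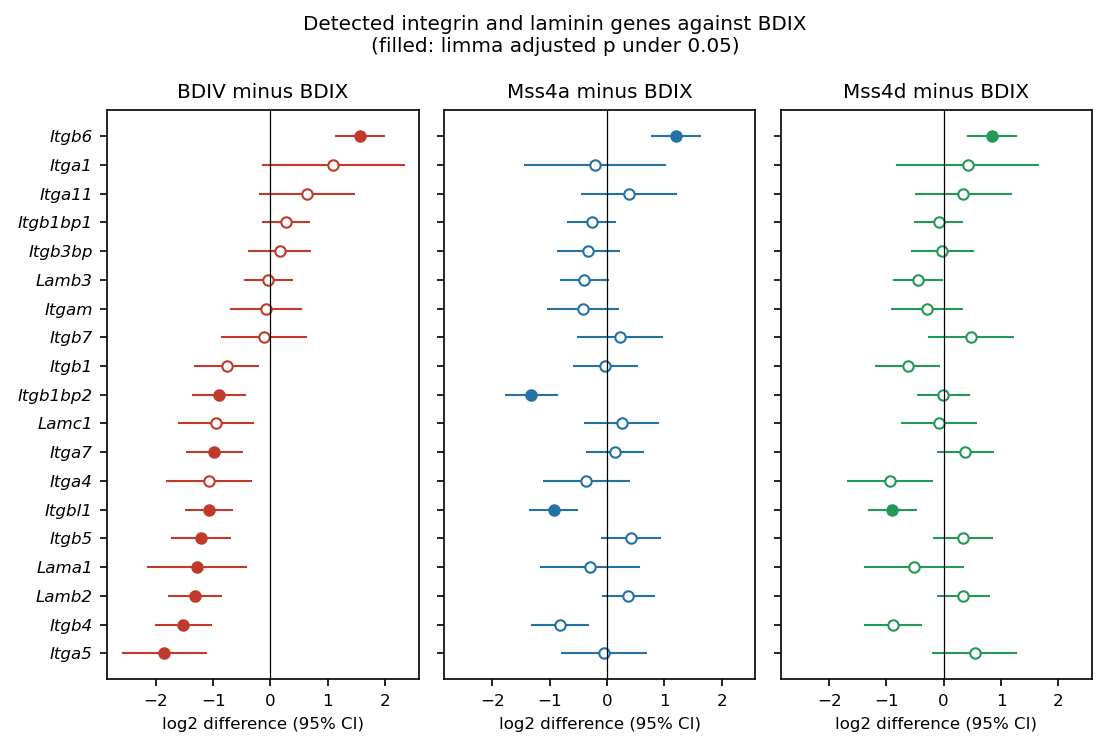
Difference in log2 intensity of each measured member from BDIX, for BDIV, Mss4a and Mss4d, with unadjusted 95% intervals from limma. Filled points passed the adjusted threshold: 9 for BDIV, 3 for Mss4a and 2 for Mss4d, and in all 3 strains Itgb6 lies to the right and Itgbl1 to the left of 0.

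Fewer members separated the congenic strains from BDIX, their recipient strain. In Mss4a 3 of 19 passed, against 11.7% of all genes (4.77% higher and 6.88% lower): Itgb6 was higher, and Itgb1bp2 (-1.32 ± 0.20, limma adjusted p = 0.0167) and Itgbl1 were lower. In Mss4d 2 of 19 passed, against 4.96% of all genes (1.30% higher and 3.66% lower), Itgb6 higher and Itgbl1 lower. The laminin chains and laminin receptor subunits gave 0 calls in either, though Itgb4 passed in both without background correction (limma adjusted p = 0.0360 and 0.0444), and with median scaling Itgb4 passed in Mss4a and Lamb2 and Itga7 in Mss4d (limma; in Mss4a Itgb4 and in Mss4d Itgb4, Itgb1 and Lamb3 were under an unadjusted p of 0.05). Scaling to medians shifted all probes by -0.37 in Mss4a, where it called 6 members, all lower, and by 0.25 in Mss4d, where it called 4, all higher. The share of called probes that were higher was 39.1% in Mss4a, 4.43% with median scaling and 65.7% with the authors' values, and in Mss4d 25.9%, 71.9% and 45.8%. Without either array of Mss4a, either of BDIV or the female one of BDIX the 3 calls in Mss4a fell to 0, and in Mss4d 0 or 1 remained without any 1 array.

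Against BDIV, the donor of the segment, the share of members past the threshold was close to that of all genes in both congenic strains. In Mss4a 6 of 19 members passed, all higher (32.1% of all genes passed, 17.4% higher and 14.7% lower): Lamb2, Itgb5, Itga5, Itga7, Lamc1 and Itgb4. In Mss4d 6 passed (30.4% of all genes, 15.8% higher and 14.6% lower), 5 higher and 1 lower: Lamb2, Itga5, Itgb5 (1.54 ± 0.22, limma adjusted p = 0.0048), Itga7 and Itgb1bp2 (0.89 ± 0.20, limma adjusted p = 0.017) were higher and Itgb6 was lower (-0.72 ± 0.19, limma adjusted p = 0.0272). The medians over the 19 were 0.34 and 0.17, against 0.02 and 0.04 over all genes, and 11 and 12 of the 19 had a positive sign. These comparisons share the BDIV arrays with each other and with BDIV against BDIX. Without the female or the male BDIV array the count of calls was 1 and 2 in Mss4a, and 2 and 3 in Mss4d. Median scaling shifted all probes by -0.46 in Mss4a, where it called 3 members higher and 6 lower, and took the share of called probes that were higher from 50.9% to 12.3%. Without the Mss4d male array 5 members passed in Mss4d against BDIV, among them Lamb2 (1.48) and Itga5 (1.85), and 0 passed in Mss4d against BDIX. In Mss4d the share of called probes that were higher went from 49.6% to 60.6% with a shift of 0.12.

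Male and female pools were compared over the 4 strains. No member passed (0 of 19; 0% of all genes; limma), 1 member was under an unadjusted p of 0.05, and 350 of all genes were. That member was Itga1 (1.21 ± 0.37, limma adjusted p = 0.926), higher in the male pool of 4 of 4 strains. The SD of the male minus female difference over the 19 members was 0.175 in BDIV, against 0.540 in BDIX, 0.545 in Mss4a and 0.718 in Mss4d. Over all genes it was 0.220 in BDIV and 0.493 to 0.533 in the others, so the BDIV pools were the closest pair for the members as for all genes. The fit pools these spreads over strains.

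**Figure D3:**
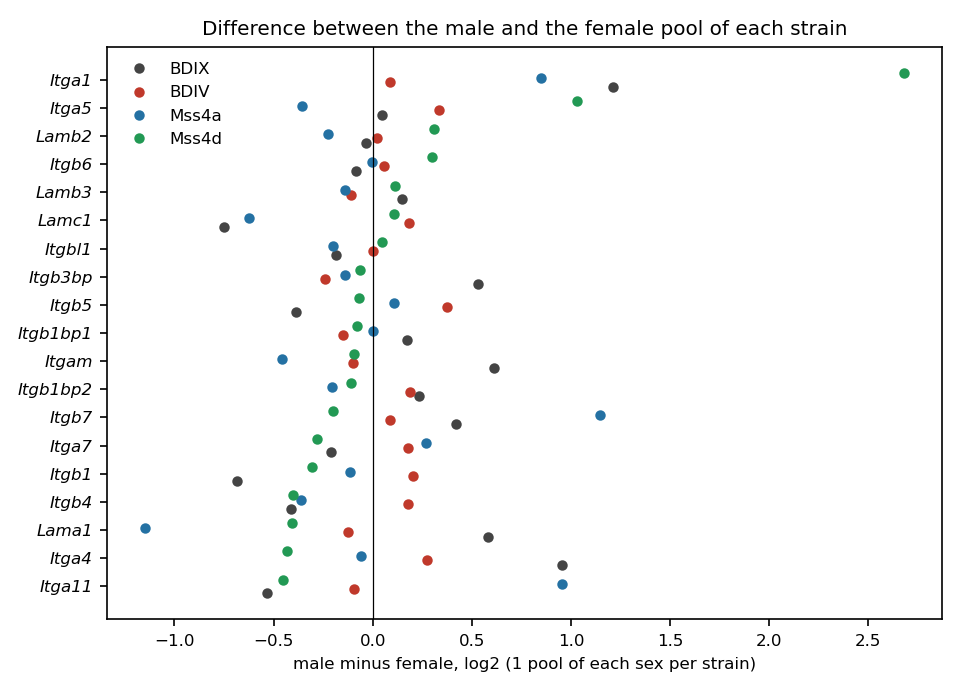
Male minus female difference in log2 intensity of each of the 19 measured members, by strain. The spread over members is smallest in BDIV (SD 0.175), and Itga1 in Mss4d lies farthest out, at 2.68.

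Other genes of the basal lamina were counted in the same fits. Of 16 measured partners that lie in or anchor the basal lamina, 6 were lower in BDIV than in BDIX and 0 higher, with a median of -0.76, beside 11.7% of all genes called lower, 10.3% called higher and a median of -0.04. The largest were Col4a1 (-2.02 ± 0.20, limma adjusted p = 0.00426), which encodes a chain of basement membrane collagen IV, Sparc (-1.55 ± 0.20), which encodes a collagen-binding matrix protein, and Col15a1 (-1.44 ± 0.18), a basement membrane collagen gene. Col4a1 was 12.20 and 12.09 in BDIX, 9.97 and 10.29 in BDIV, 10.51 and 10.29 in Mss4a, and 11.54 and 11.44 in Mss4d. The order of the strains for Col4a1 thus differed from that for Lamb2, since Mss4a lay close to BDIV (it was 1.74 below BDIX, limma adjusted p = 0.0111). Dag1, which encodes the laminin receptor dystroglycan and is named here after its value was seen, was also lower in BDIV (-0.92 ± 0.19, limma adjusted p = 0.0179). Of the 16 partners, 14 had a lower mean in BDIV than in BDIX and 2 a higher one. Bcam was among these 2, at 9.70 and 10.04 in BDIV and 9.18 and 8.87 in BDIX. Against BDIX, 2 of the 16 partners were called higher and 4 lower in Mss4a, beside 4.77% and 6.88% of all genes. In Mss4d 0 were higher and 1 lower, beside 1.30% and 3.66%. Utrn, which encodes utrophin, a dystroglycan-bound actin linker, was lower than in BDIX in Mss4a (-1.63 ± 0.31) and in Mss4d (-1.68 ± 0.31). Its pools lay near the background in Mss4a (5.44 and 5.74) and in Mss4d (5.48 and 5.59). In BDIX the Utrn pools lay wide apart, at 7.69 and 6.75. Pomt1, which encodes an enzyme that glycosylates dystroglycan, was lower in Mss4a than in BDIX (-1.30 ± 0.28). Its Mss4a pools were at 5.84 and 5.01, and the male one was not above background.

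Of 28 measured genes that link integrins to actin or signal from them, 5 were lower in BDIV than in BDIX and 0 higher, with a median of -0.38. These 5 lower calls stand beside 11.7% of all genes called lower. Of the genes past the threshold there, Flna, the filamin A gene, differed most (-1.47 ± 0.19, limma adjusted p = 0.00688). Lims1, which encodes PINCH1, a partner of integrin-linked kinase, was 5.32 and 5.56 in Mss4a and 8.38 and 8.70 in Mss4d, and the difference passed (-3.09 ± 0.37, limma adjusted p = 0.0244). Its Mss4a female pool was not above background and its Mss4a male pool lay near it, which limits the size of this estimate. Its BDIX pools, at 7.46 and 6.21, lay wide apart, and Mss4d lay above them (1.70 ± 0.37, limma adjusted p = 0.0484). Rac1, a small GTPase gene of lamellipodia, was lower in Mss4d than in BDIX (-1.15 ± 0.21).

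Against BDIV, 5 of the 16 basal lamina partners were higher in Mss4a and 7 in Mss4d, with 0 lower in either. Of all genes, 17.4% were called higher and 14.7% lower in Mss4a, and 15.8% and 14.6% in Mss4d. Sparc was higher in both (1.72 ± 0.20 and 1.96 ± 0.20), Fbln1, which encodes the matrix protein fibulin 1, was higher in Mss4a by 1.64 ± 0.19. Col4a3, a collagen IV chain gene, was above background only on the Mss4d arrays, at 5.76 and 8.46, and so entered the test through the strain where it was high. Its level was at least 3.79-fold higher in Mss4d than in BDIV, a bound against the lowest detected signal (limma adjusted p = 0.0367), and rests mostly on the Mss4d male array that stood apart in thyroid markers. Of the 28 linker and signalling genes, 5 were higher and 5 lower in Mss4a and 8 higher and 2 lower in Mss4d. In either direction, 32.1% of all genes passed in Mss4a and 30.4% in Mss4d. Ilk, the integrin-linked kinase gene, was lower in Mss4a than in BDIV (-1.41 ± 0.24), and Lims1 (2.25 ± 0.37) and Flna (1.52 ± 0.19) were higher in Mss4d. Over all strain comparisons 28 of 44 partners passed at least once, as did 49.5% of all genes, and 5 and 6 did so without the female and the male BDIV array.

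**Figure D4:**
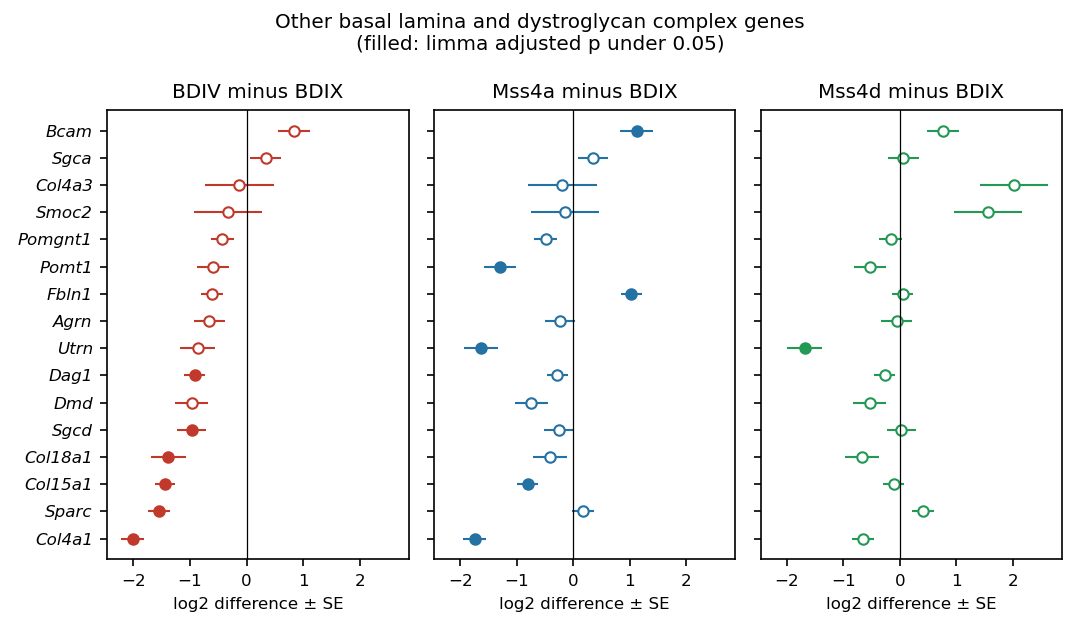
Difference in log2 intensity from BDIX of the 16 measured basal lamina partners, for BDIV, Mss4a and Mss4d, with bars of 1 standard error and filled points past the adjusted threshold. Filled points number 6, all lower, in BDIV, 6 in Mss4a (2 higher and 4 lower) and 1 lower (Utrn) in Mss4d.

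Markers of several cell types moved with the members, and their part in the results was not tested. The counts of called markers in BDIV against BDIX stand beside 11.7% of all genes called lower and 10.3% called higher. Of 12 measured markers of myelinating Schwann cells, 8 were lower in BDIV than in BDIX and 0 higher, and their summed normalised signal was 67281 to 82007 in BDIV against 126997 to 171737 in BDIX, 108031 to 117858 in Mss4a and 129148 to 130992 in Mss4d. Of 14 fibroblast and perineurium markers, 7 were lower and 0 higher, with sums of 75194 to 84785 in BDIV against 113400 to 127481 in BDIX. Endothelial markers summed to 6818 to 7803 in BDIV, 9938 to 10450 in BDIX and 12969 to 15108 in the congenic strains, with Cdh5 not detected. Mural cell markers summed to 977 to 1021 in BDIV and 2118 to 2266 in BDIX, with Cnn1 and Notch3 not detected. For each of the 4 lists the sum was lowest in BDIV, as it also was for granulocyte (264 to 267), lymphocyte (219 to 222) and red cell markers. Non-myelinating Schwann cell markers did not share this order. They summed to 46821 to 52398 in BDIV, 45725 to 46908 in BDIX, 44041 to 54663 in Mss4a and 26471 to 41209 in Mss4d.

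Markers of sensory neurons ran the other way: 6 of 13 were higher in BDIV than in BDIX and 0 lower, with sums of 136332 to 138708 against 75104 to 93725. Of 8 macrophage markers 1 was higher and 0 lower. Red cell markers summed to 6615 to 9360 in BDIV and 32247 to 47560 elsewhere. The Mss4d male array, on which Itga1 and Itga5 were brightest, stood apart in thyroid markers, whose sum was 46859 there, 5114 on the Mss4d female array and 138 to 254 on the other 6, with Foxe1, Nkx2-1 and Pax8 not detected. Without both Mss4d arrays, an alternative added after seeing the data, 10 members passed in BDIV against BDIX, 8 of them among the 9 above. In BDIV against BDIX over all 8 arrays, 10.3% of all genes were called higher and 11.7% lower. Beside these, the counts higher and lower were 0 and 1 of 10 non-myelinating Schwann cell markers, 0 and 3 of 7 endothelial, 1 and 1 of 4 mural, 0 and 2 of 7 granulocyte and 0 and 4 of 7 red cell markers. They were 0 and 0 of 6 lymphocyte, 1 and 0 of 3 platelet, 1 and 0 of 6 skeletal muscle, 0 and 0 of 4 thyroid and 0 and 1 of 6 epithelial markers.

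**Figure D5:**
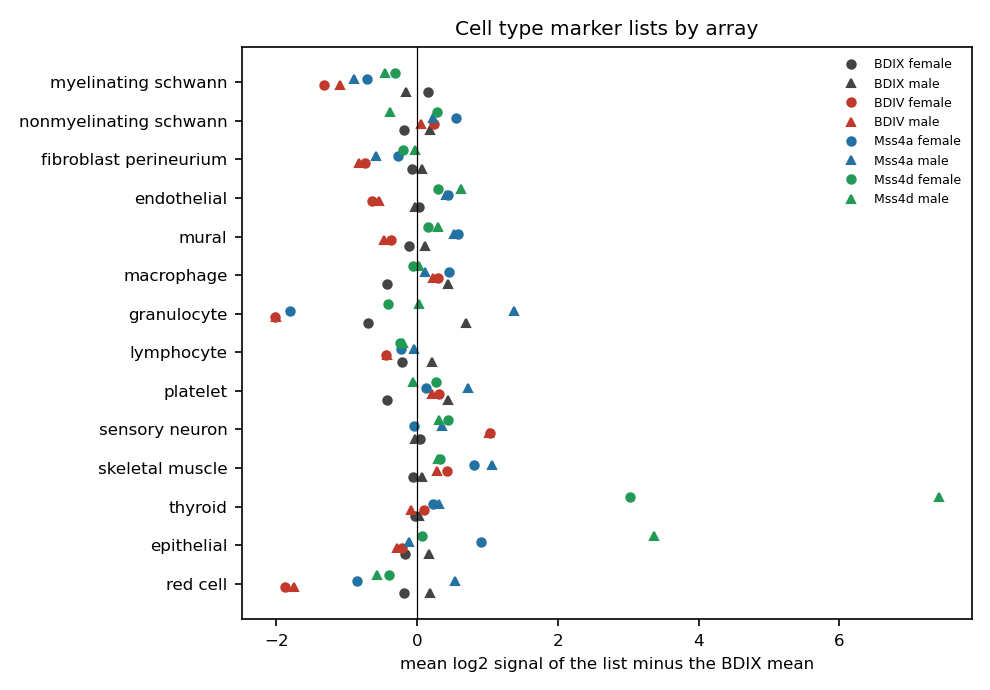
Mean log2 intensity of each cell type marker list on each of the 8 arrays, minus the mean of the 2 BDIX arrays, with strain by colour and a circle or triangle for the female or male pool. The BDIV points are lowest for myelinating Schwann cell, fibroblast, endothelial, mural, granulocyte, lymphocyte, red cell and, by a small margin, epithelial lists and highest for sensory neurons. The Mss4d male point stands far to the right for the thyroid list.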

How the data were processed

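Total RNA was biotin-labelled and hybridised by the authors to RatRef-12 bead arrays, read with GenomeStudio 2010, per the labels. The deposited non-normalized table holds linear bead intensity, with a detection p-value beside each value. The authors' value table holds linear intensity too, tested to be a straight line of each array's raw signal (largest residual 0.0143). Genes were named from the platform annotation: 13793 of 22523 probes had 1 symbol.

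From the deposited intensity, log2 values were made with neqc (limma 3.58.1, R 4.3.3; offset 16, negative controls inferred from detection p) and fitted on 13114 probes with strain and sex (3 residual degrees of freedom, 4.09 prior). A strain by sex interaction has no residual degrees of freedom. The offset understates the change of dim probes. The fit was tested on simulated data.

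Members, partner and marker lists and tests were chosen with earlier results of these data known. Array values are given for the set basal lamina subunits and members past a threshold, and partners named are the 4 largest calls per strain comparison, of which 1 gene is not reported here. The number of arrays limits the precision.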

Additional observations from a re-analysis of the deposited data

How the results depend on the processing

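Alternatives were no background correction, scaling to array medians, the authors' values, a trended robust variance, no filter on dim probes or a strict one (every array under a detection p of 0.01), no sex term, the probe with the lowest p, only the 4 arrays compared, and leaving out each array; leaving out both Mss4a or both Mss4d arrays was added after seeing the data. Of 271 checks on the 27 called differences 247 kept direction and side of the threshold, 23 kept direction only, and 1 reversed, Itgb4 in Mss4a against BDIV (-0.0391 with median scaling). Of 216 fits without 1 array 121 stayed past the threshold, 95 did not, and 0 reversed. Such a fit has fewer residual degrees of freedom, and the lone array is assumed to vary like the other strains. Counts of called members that moved were as follows. With median scaling they were 6 for Mss4a against BDIX (3 before), 4 for Mss4d against BDIX (2 before) and 9 for Mss4a against Mss4d (1 before), all lower in the last. For Mss4d against BDIX the count was 1 with the authors' values, 1 without a filter, 1 without both Mss4a arrays and 0 with only the 4 arrays. For Mss4a against Mss4d it was 0 with no background correction, the authors' values, no filter, the strict filter or only the 4 arrays. With only the 4 arrays it was 11 for Mss4a against BDIV and 10 for Mss4d against BDIV (6 before each). Leaving out each array gave 0 to 11 in the F test, 0 to 10 in BDIV against BDIX, 0 to 3 in Mss4a against BDIX, 0 to 1 in Mss4d against BDIX, 0 in Mss4a against Mss4d, 1 to 9 in Mss4a against BDIV, 2 to 7 in Mss4d against BDIV, 0 between sexes, and 5 to 29 of the partners. The cause was not tested. All probes moved with the members: median scaling raised calls between Mss4a and Mss4d from 160 to 6669, of which 1.77% were higher (24.4% before). There, the no-filter, authors' and uncorrected settings called 21, 22 and 104 probes. The slide as a block was not run because the files name no slides. No paired analysis was possible because pools share only their strain or their sex, and the fit already holds these as terms. Low signal limits Lamb3, Itgam, Itgb7, Itga5 in BDIV and Itgb1bp2 in Mss4a. Among the named partners it also limits Lims1 and Pomt1 in Mss4a, Utrn in both congenic strains, and Col4a3 outside Mss4d.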
